A study of Mus musculus with 12 samples.

Results

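Potassium channel genes were followed in mouse retinas after an excitotoxic injury, in which the glutamate analog NMDA overactivates NMDA-type glutamate receptors. A gene belonged to the set when its name began with Kcn and its mean was above 1 FPKM (sequenced fragments scaled by transcript length and by the library's mapped total, the unit of all levels here) in at least 1 of 6 groups of libraries. The rule leaves out Kcnj10, names marking a pseudogene and names ending in os. Of the 99 genes whose name begins with Kcn, 3 were left out by name and 35 had no group mean above 1, so that 61 genes remained of 55487 in the table and of 16471 that passed the same limit. The lowest of the 61 by their highest group mean were Kcnk6 at 1.255, Kcnj8 at 1.335 and Kcnmb4os2 at 1.345 FPKM, and the highest left outside were Kcnn3 at 0.785 and Kcne3 at 0.77 FPKM. Of the 61 genes, 60 code for protein, and Kcnmb4os2 is a noncoding antisense gene whose name does not end in os.

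The 12 libraries fall into 6 groups of 2. Wild-type C57BL/6J (B6J) retinas (WT), retinas of mice infected with the vector AAV2.7m8 carrying pU6-shPax6-GFP (shPax6) and Jnk3-/- retinas (JNK3 KO) each received intravitreal PBS or 40 nmol of NMDA in 1 µL, and each library was made from poly(A) RNA of several pooled retinas. Mice given the shPax6 vector and WT mice were 2 months old, and the age behind the JNK3 KO libraries is not given in the sources used here. The U6 promoter drives the hairpin in any cell that the vector reaches. JNK3 KO mice are homozygous for a knockout of the kinase gene Mapk10 in every cell. No library of retinas with a control hairpin is among the 12, so that infection and knockdown cannot be told apart. After PBS, Pax6 read 173.48 and 177.3 FPKM in WT against 94.56 and 92.84 in shPax6, but after NMDA 55.42 and 53.81 in WT against 67.52 and 58.73 in shPax6. Mapk10 read 42.79 and 50.72 FPKM in WT PBS against 9.47 and 8.75 in JNK3 KO PBS, but 8.98 and 6 in WT NMDA against 6.65 and 13.77 in JNK3 KO NMDA. So the targeted genes were lower in the libraries labelled shPax6 and JNK3 KO after PBS, while after NMDA neither was lower in both of them than in both WT libraries. Which part of Mapk10 the knockout removes is not given in the sources used here, and its gene value does not check the deletion. The paper calls the RNA-seq replicates biological, but no source used here says whether the 2 libraries of a group came from separate animals. The p-values therefore measure only the spread between these libraries, and how far that spread is technical is not known.

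Potassium channels let potassium leave a neuron, which holds the resting potential and ends each action potential. Voltage-gated (Kv) channels are tetramers of pore subunits, into which modulatory subunits that form no channel on their own can enter, and auxiliary subunits bind to the finished channel. Calcium- and sodium-activated channels open on ion entry, inward rectifiers pass current near the resting potential and can answer to G proteins or ATP, and two-pore-domain channels carry the leak current. In the retina, ganglion cells and amacrine cells fire spikes and use many Kv channels, while photoreceptors carry a slower Kv current of their own. In bulk retina, fewer cells of a type and less RNA per cell cannot be told apart.

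All 6 classes of channel gene were represented. The 61 genes comprised 23 of 30 Kv pore subunits, 4 of 10 Kv modulatory subunits, 11 of 16 auxiliary subunits, 6 of 8 calcium- or sodium-activated channels, 10 of 14 inward rectifiers, 6 of 14 two-pore-domain channels and 1 of 3 noncoding genes. In WT PBS retinas their median level was 6.19 FPKM, with 24 genes above 10 and 22 below 3 FPKM. Kcnj14 at a mean of 145.4 and Kcnab2 at 120.6 FPKM were among the most abundant. Kcnv2 encodes Kv8.2, a modulatory subunit of the photoreceptor Kv current. Kcnv2 was at 61.85 and 58.78 FPKM in WT PBS. Kcnab2 encodes a cytoplasmic beta subunit of Kv1 channels and Kcnj14 the inward rectifier Kir2.4.

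Many potassium channel genes fell after NMDA in WT and shPax6 retinas, and few in JNK3 KO retinas. A gene was counted as changed when limma gave a Benjamini-Hochberg adjusted p under 0.05 over all 16471 genes and the difference passed 1 on the log2(FPKM + 0.1) scale, on which all differences here are given and which understates the change of low genes. In WT 33 of the 61 genes (54.1%) fell and 1 rose, against 20.9% of all genes that fell and 14.2% that rose. In shPax6 27 genes (44.3%) fell and 3 rose, against 4.94% and 8.64% of all genes. The shPax6 counts rested on the spread shared by all 6 groups. With a spread from the compared groups alone 7 fell and 1 rose, against 1.09% and 2.9% of all genes. With a pseudocount of 1 they were 14 and 2, against 3.06% and 6.9%. Kcna1, Kcnd2, Kcnk2, Kcnq3 and Kcns2 were among the falls lost with that pseudocount (-0.59 to -0.88). Among the shPax6 calls lost with the spread from the compared groups alone were those of Kcna1, Kcna2, Kcnab1, Kcnc2, Kcnc4, Kcnd2, Kcnk2, Kcnk4, Kcnn4, Kcnq3 and Kcns2 (limma adjusted p = 0.0626 to 0.244). In JNK3 KO 2 genes (3.28%) fell and none rose, against 1.87% and 0.777% of all genes, while 4 fell past the same limit at an unadjusted p under 0.05, against 3.24% of all genes that did so and 1.44% in the other direction. The median log2 difference of the 61 genes was -1.07 in WT, -1.05 in shPax6 and -0.34 in JNK3 KO, and that of all genes was -0.09, 0.10 and -0.01. Among the 37 genes that stayed above 1 FPKM in all 6 groups, 17 fell in WT, 14 fell and 2 rose in shPax6 and none passed in JNK3 KO. The shares of all genes held to that limit are not given, so these counts have no background. That subset leaves out genes that dropped below 1. Of the 61 genes, 5 (Kcnd2, Kcnf1, Kcnj2, Kcnk2 and Kcnq3) entered the set through PBS groups alone and 4 (Kcnj8, Kcnk6, Kcnn4 and Kcnmb4os2) through 1 NMDA group alone. The rule thus favored a fall after NMDA in those 5 and a rise in those 4. The p-values given for these genes do not allow for this.

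**Figure D1:**
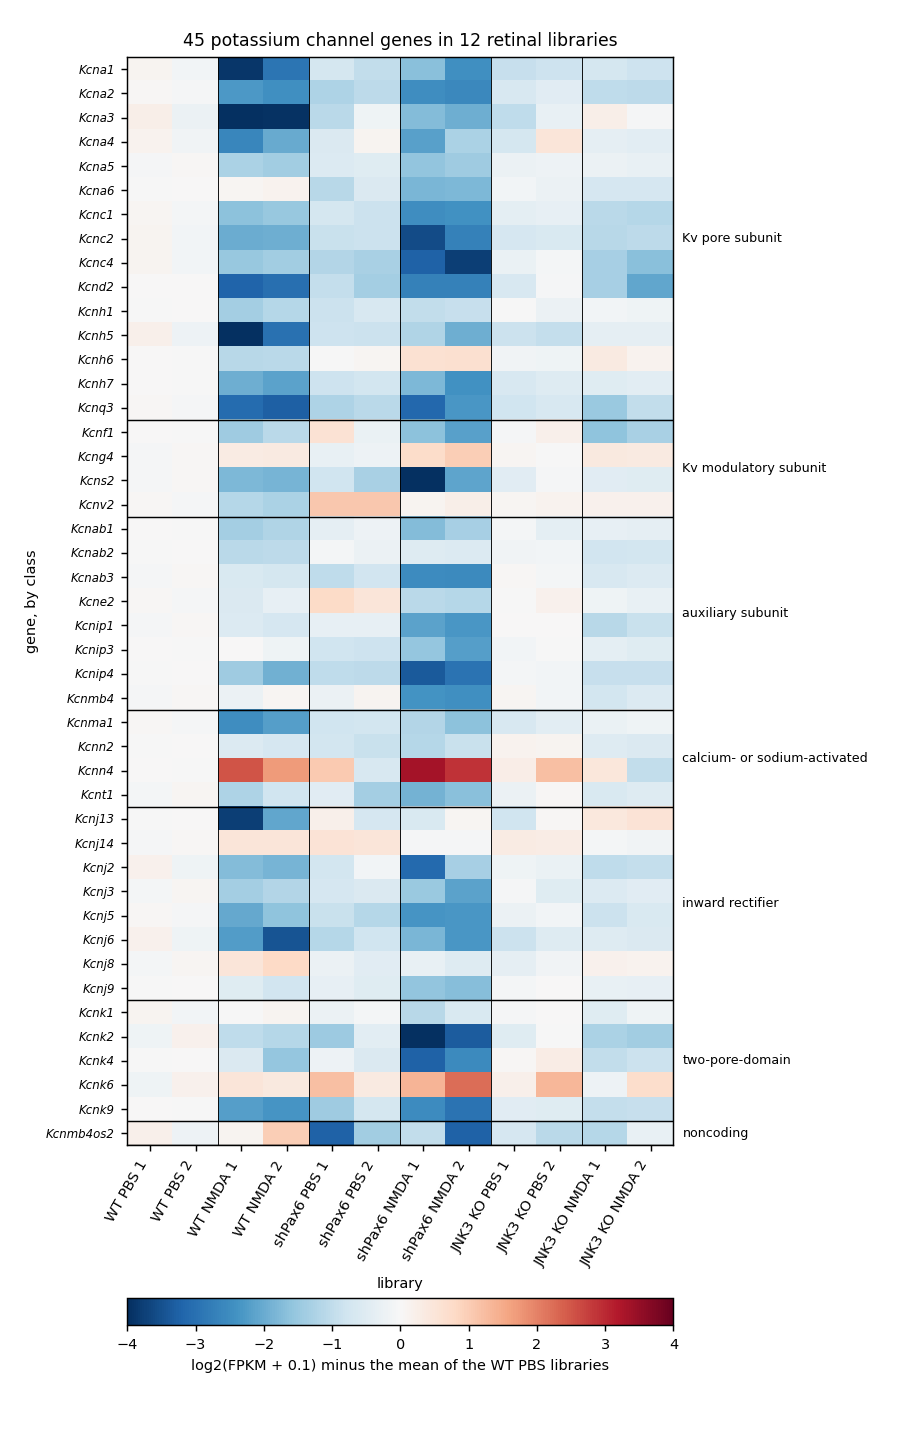
Each row is 1 of the 45 potassium channel genes named in the text, ordered by class, and each column 1 of the 12 libraries; color gives log2(FPKM + 0.1) minus the mean of the 2 WT PBS libraries, limited to 4 in either direction. Blue fills most Kv rows in the WT NMDA and shPax6 NMDA columns, while the JNK3 KO NMDA columns stay pale.

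The WT NMDA libraries stood apart in a way that touches these genes. Their FPKM summed to 805627 and 820180 over all genes, against 541210 to 576922 in the other 10 libraries, and in them long transcripts were lower and short ones higher. Among all genes, the median WT response was 0.62 on the log2 scale for spliced lengths under 2 kb, -0.32 for 2 to 4 kb and -1.17 above 4 kb. Potassium channel genes are long, with a median spliced length of 3627 bases against 2190 for all genes tested. Their median WT response lay below that of all genes in each class, at -0.23 under 2 kb, -0.66 for 2 to 4 kb and -1.82 above 4 kb. In these classes 3 of 13, 10 of 25 and 20 of 23 fell, against 6.02%, 21.2% and 57.4% of all genes of that length. With each library corrected for its trend on spliced length, 13 genes fell and 3 rose in WT, against 11.3% and 6.73% of all genes, and the median response was -0.58. The 13 were Kcna1, Kcna3, Kcna4, Kcnab2, Kcnc2, Kcnd2, Kcnh5, Kcnip4, Kcnj5, Kcnj6, Kcnj13, Kcnk4 and Kcnq3, and Kcna6 and Kcng4 were among those that rose, neither of which passed without the correction.

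**Figure D2:**
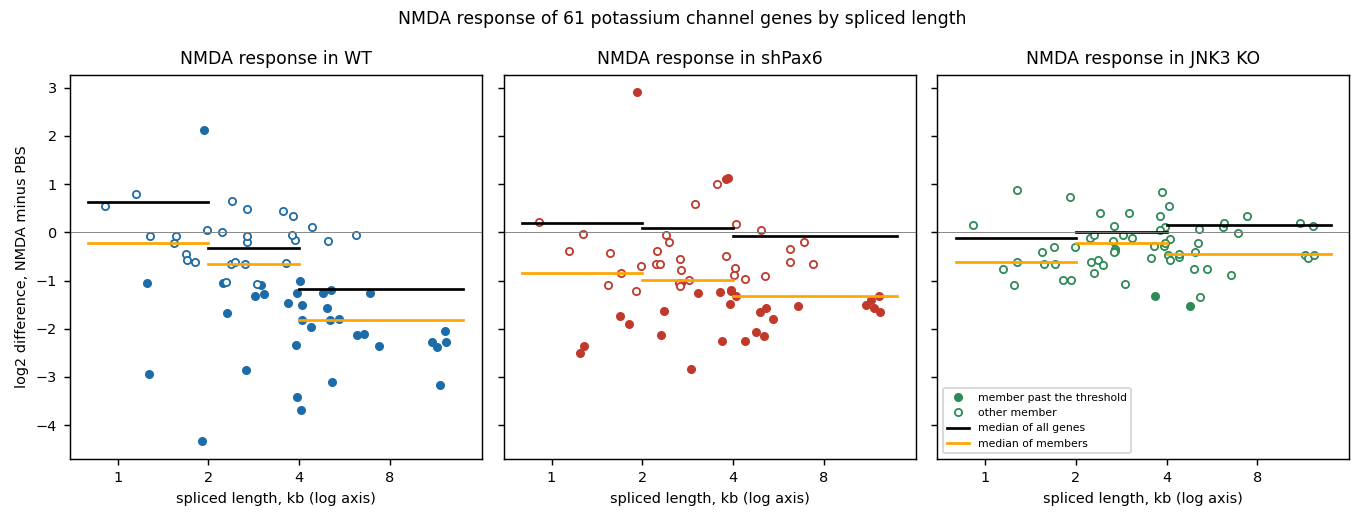
Each point is 1 of the 61 genes, with its spliced length on a log axis against its log2 difference between NMDA and PBS in WT, shPax6 and JNK3 KO; filled points passed the threshold. Black lines give the median of all genes and orange lines that of the 61 genes in 3 length classes, and in WT both steps go down with length, from 0.62 to -1.17 for all genes.

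In shPax6 the channel genes had a lower median than all genes in every length class. The median of all genes was 0.19, 0.09 and -0.07 in the 3 length classes, while that of the channel genes was -0.85, -0.99 and -1.32, with 4 of 13, 10 of 25 and 13 of 23 genes that fell. After the length correction 31 genes fell and 3 rose in shPax6, against 5.72% and 7.1% of all genes, with a median of -1.10. In JNK3 KO 4 genes fell after the correction and none rose, against 1.71% and 0.716% of all genes. Length-corrected values are given beside the WT values of most genes described below, and all other values, those of transcripts among them, are uncorrected.

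Markers of retinal neurons moved in the same libraries. Of 12 retinal ganglion cell (RGC) markers, 8 fell after NMDA in WT, 9 in shPax6 and 6 in JNK3 KO, and their summed level went from 577 to 600 FPKM in WT PBS to 320 to 338 in WT NMDA, from 175 to 177 to 51.6 to 56.3 in shPax6 and from 549 to 590 to 145 to 146 in JNK3 KO. Of 8 amacrine markers, 6 fell in WT, 6 in shPax6 and 1, Chat, in JNK3 KO, with sums of 292 to 299 against 116 to 124 FPKM in WT, 227 to 238 against 103 to 105 in shPax6 and 257 to 264 against 230 to 233 in JNK3 KO. Of 8 bipolar cell markers, 3 (Isl1, Prkca and Trpm1) fell and 1 (Pcp2) rose in WT, with sums of 601 to 607 against 793 to 801 FPKM. None passed in shPax6 (549 to 556 against 533 to 534) or JNK3 KO (571 to 599 against 613 to 621). Of 6 Müller glia markers, 3 (Aqp4, Kcnj10 and Slc1a3) fell in WT, 1 (Apoe) rose in shPax6 and none passed in JNK3 KO. Their sums were 593 to 600 against 637 to 661, 1482 to 1561 against 2394 to 2560 and 692 to 721 against 712 to 719 FPKM. None of the markers of these 4 lists was at 0 in a group. The part that these cells have in the channel results was not tested.

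In WT, most of the 33 falls were among the Kv pore subunits. In WT 18 of 23 fell, with a median of -1.97, in shPax6 11 fell and 1 rose, with a median of -1.21, and in JNK3 KO 1 fell. Within the Kv1 family, whose subunits sit along axons and near nodes, Kcna1 (Kv1.1) was at 5.04 and 4.35 FPKM in WT PBS against 0.22 and 0.53 in WT NMDA. It was at 2.86 and 2.33 FPKM in shPax6 PBS, 1.40 and 0.78 in shPax6 NMDA, 2.40 and 2.61 in JNK3 KO PBS and 2.86 and 2.62 in JNK3 KO NMDA. The WT and shPax6 groups did not overlap, and in JNK3 KO both NMDA libraries lay just above PBS. The log2 difference was -3.41 ± 0.37 (SE) in WT (limma adjusted p = 4.23e-05, length-corrected -2.64), -1.22 ± 0.37 in shPax6 (adjusted p = 0.0354) and 0.12 ± 0.37 in JNK3 KO (adjusted p = 0.904). The shPax6 call was lost when any of 9 single libraries was left out, among them shPax6 NMDA 2, without which the difference was -0.84. Kcna2 (Kv1.2) was at 13.47 and 12.4 FPKM in WT PBS, 2.54 and 2.26 in WT NMDA, 5.42 and 6.21 in shPax6 PBS, 2.22 and 2.06 in shPax6 NMDA, 8.32 and 9.35 in JNK3 KO PBS and 6.36 and 6.21 in JNK3 KO NMDA. All NMDA values lay under the PBS values of the same genotype. Its log2 difference was -2.38 ± 0.15 in WT (limma adjusted p = 1.28e-06) and -1.40 ± 0.15 in shPax6 (adjusted p = 0.000154), and the length-corrected WT value, -0.58, did not pass.

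Kcna3 (Kv1.3), a channel also known from T cells and microglia, showed the largest WT fall of the 61 genes on the log2(FPKM + 0.1) scale. This rank rests on values at or near 0, since with a pseudocount of 1 its WT difference was -1.77. Kcnh5 (-2.37) and Kcna1 (-2.06) then fell further. Kcna3 lies on the plus strand of chromosome 3, at chr3:107036169-107038070 (GRCm38). It was at 3.00 and 2.13 FPKM in WT PBS and was listed at 0 and 0.07 in WT NMDA. In shPax6 it was at 1.15 and 2.21 after PBS and 0.69 and 0.58 after NMDA, and in JNK3 KO at 1.21 and 2.03 after PBS and 2.98 and 2.43 after NMDA. Thus WT and shPax6 NMDA libraries lay below their controls and the JNK3 KO NMDA libraries above theirs. The log2 difference was -4.33 ± 0.45 in WT (limma adjusted p = 2.88e-05, length-corrected -4.53), -1.21 ± 0.45 in shPax6 (adjusted p = 0.0701) and 0.74 ± 0.45 in JNK3 KO (adjusted p = 0.362). The shPax6 value passed without shPax6 PBS 1 (-1.66, adjusted p = 0.0432). The summed level of microglia and macrophage markers was 33 to 36.3 FPKM in WT PBS and 72.9 to 76.1 in WT NMDA; its part in the Kcna3 result was not tested. The Kv1.4 gene Kcna4 fell by 2.33 in WT (length-corrected -1.56) and by 1.49 in shPax6 on the log2 scale, and Kcna5 by 1.32 in WT (length-corrected -0.96, not past the limit).

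On the FPKM scale the Kv1 gene Kcna6 had a level gene value in WT. Of its transcripts Kcna6-201 fell there, and the higher values of Kcna6-203 did not pass. On chromosome 6, Kcna5, Kcna1 and Kcna6 lie in a row, with Kcna1 at chr6:126640397-126646384 on the minus strand (GRCm38), 104984 bases from Kcna5 and 61944 bases from Kcna6. Kcna6, chosen for mention after its values were seen, was at 13.64 and 14.15 FPKM in WT PBS and 14.81 and 15.18 in WT NMDA, a log2 difference of 0.11 ± 0.16 (limma adjusted p = 0.594), while both its neighbours fell; after the length correction Kcna6 was 1.03 and on TPM -0.46. Its longer transcript Kcna6-201, of 5827 bases, fell in WT from 11.05 and 10.86 to 3.73 and 2.8 FPKM (-1.73 ± 0.22, limma adjusted p = 0.00052), while Kcna6-203, of 2080 bases, was at 2.58 and 2.75 FPKM after PBS and 11.09 and 12.38 after NMDA (2.10 ± 1.19, adjusted p = 0.213). In shPax6 the gene value of Kcna6 was 6.40 and 9.36 FPKM after PBS and 3.87 and 3.93 after NMDA. Its difference of -0.97 ± 0.16 lies just inside the limit of 1 and just past it on TPM (-1.03). On chromosome 3, Kcna3 and Kcna2 lie 63075 bases apart and Kcna2 and Kcnc4 323297 bases apart, and all 3 fell in WT.

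Kv3 subunits (Kcnc), which let neurons fire fast, fell in both WT and shPax6 for Kcnc1, Kcnc2 and Kcnc4. Kcnc1 was at 29.87 and 26.66 FPKM in WT PBS, 8.97 and 9.78 in WT NMDA, 17.37 and 15.38 in shPax6 PBS, 4.95 and 5.24 in shPax6 NMDA, 21.42 and 22.68 in JNK3 KO PBS and 13.25 and 12.78 in JNK3 KO NMDA. Both NMDA libraries were lower in each genotype. The log2 difference was -1.58 ± 0.11 in WT (limma adjusted p = 2.04e-06, length-corrected -0.53, not past the limit), -1.66 ± 0.11 in shPax6 (adjusted p = 7.98e-06) and -0.76 ± 0.11 in JNK3 KO (adjusted p = 0.00294, under the limit of 1). Kcnc2 was at 13.78 and 11.89 FPKM in WT PBS and 3.17 and 3.23 in WT NMDA, at 6.86 and 6.96 in shPax6 PBS and 0.98 and 1.90 in shPax6 NMDA, and at 7.96 and 8.30 in JNK3 KO PBS and 5.83 and 6.12 in JNK3 KO NMDA. Its difference was -1.97 ± 0.25 in WT (limma adjusted p = 0.000117, length-corrected -1.06), -2.25 ± 0.25 in shPax6 (adjusted p = 0.000202) and -0.44 ± 0.25 in JNK3 KO (adjusted p = 0.334). Kcnc4 fell in all 3 genotypes. It was at 7.57 and 6.57 FPKM in WT PBS, 2.39 and 2.61 in WT NMDA, 3.06 and 2.82 in shPax6 PBS, 0.66 and 0.43 in shPax6 NMDA, 5.85 and 6.64 in JNK3 KO PBS and 2.73 and 2.14 in JNK3 KO NMDA. Its log2 difference was -1.46 ± 0.24 in WT (limma adjusted p = 0.000537, length-corrected -0.79, not past the limit), -2.26 ± 0.24 in shPax6 (adjusted p = 0.000143) and -1.33 ± 0.24 in JNK3 KO (adjusted p = 0.00894). The JNK3 KO call was lost without JNK3 KO PBS 1, JNK3 KO PBS 2 or JNK3 KO NMDA 2, with differences of -1.42, -1.24 and -1.16 and adjusted p of 0.0513, 0.0688 and 0.0881.

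The A-type subunit gene Kcnd2 (Kv4.2), whose channels inactivate quickly in dendrites, was at 2.73 FPKM in both WT PBS libraries and at 0.21 and 0.25 in WT NMDA. In shPax6 it was at 1.37 and 1.00 after PBS and 0.33 in both NMDA libraries, and in JNK3 KO at 1.70 and 2.62 after PBS and 1.02 and 0.57 after NMDA. No NMDA value reached a PBS value of its genotype. The difference was -3.10 ± 0.38 in WT (limma adjusted p = 9.42e-05, length-corrected -2.01), -1.56 ± 0.38 in shPax6 (adjusted p = 0.0139) and -1.35 ± 0.38 in JNK3 KO (adjusted p = 0.0569). Kcnd2 entered the set through PBS groups alone, which favored a fall. With a pseudocount of 1 its shPax6 value was -0.71, not past the limit. The shPax6 call was lost without shPax6 PBS 1 (-1.36, adjusted p = 0.0609), and the JNK3 KO value passed without either shPax6 NMDA library (adjusted p = 0.0424 for each), since all groups share 1 estimate of the spread.

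Kcnq3 encodes a subunit of the M-current, which limits repetitive firing. It was at 2.06 and 1.95 FPKM in WT PBS, 0.15 and 0.12 in WT NMDA, 0.80 and 0.90 in shPax6 PBS, 0.14 and 0.32 in shPax6 NMDA, 1.12 and 1.26 in JNK3 KO PBS and 0.65 and 0.96 in JNK3 KO NMDA. NMDA libraries were lower than PBS libraries in each genotype. The difference was -3.17 ± 0.41 in WT (limma adjusted p = 0.000132, length-corrected -1.35), -1.58 ± 0.41 in shPax6 (adjusted p = 0.0184) and -0.53 ± 0.41 in JNK3 KO (adjusted p = 0.496). Kcnq3 entered the set through PBS groups alone, which favored a fall. With a pseudocount of 1 its shPax6 value was -0.59, not past the limit.

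**Figure D3:**
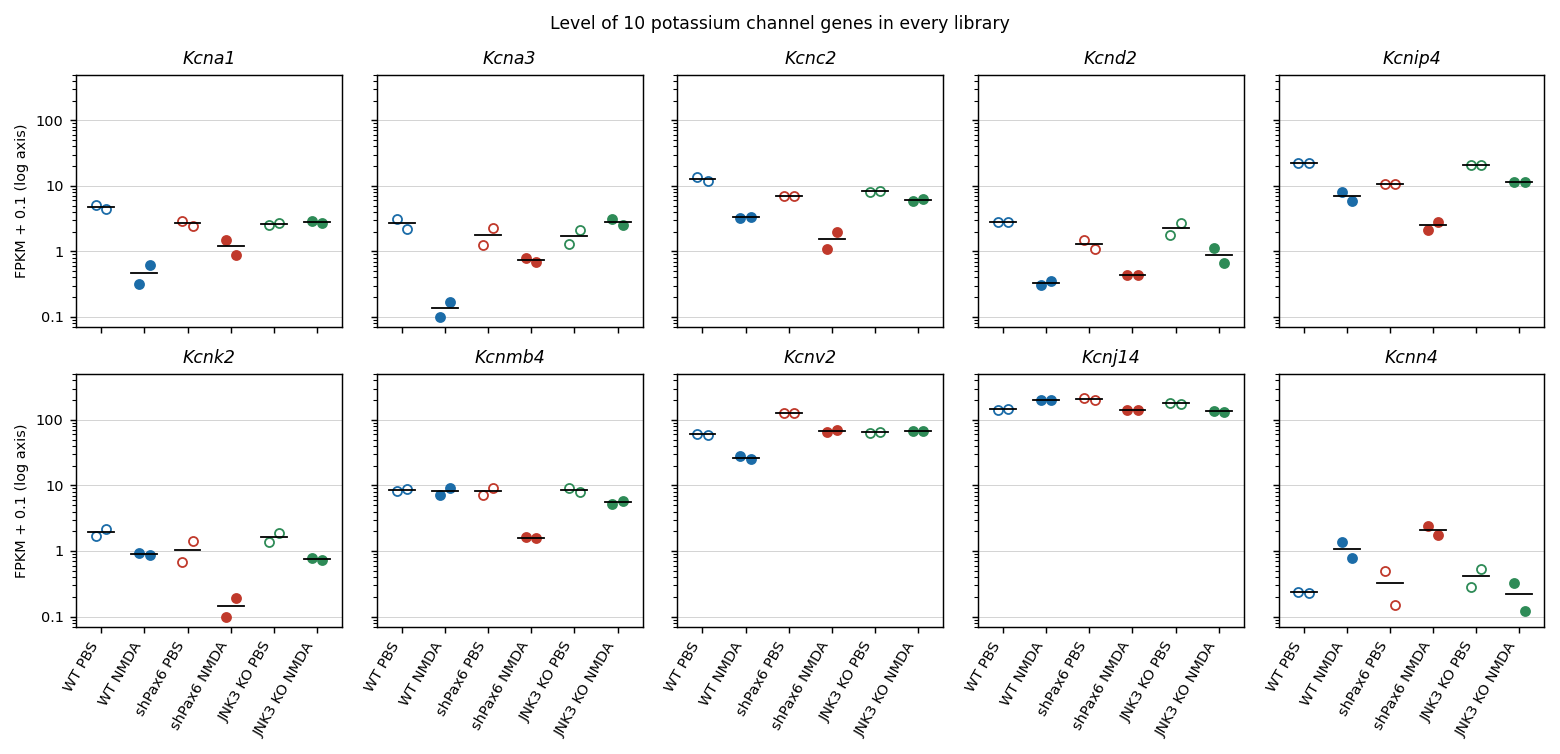
Points give FPKM + 0.1 of 10 genes in every library on a log axis shared by all panels, open after PBS and filled after NMDA (WT blue, shPax6 red, JNK3 KO green), and bars the group means. Kcna3 reached the bottom of the axis in WT NMDA and Kcnk2 in shPax6 NMDA, and Kcnmb4 passed the threshold in shPax6 only of the 3 responses.

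Of the Kcnh genes, relatives of the ether-a-go-go channel, Kcnh5 (Kv10.2) fell most in WT. It lies at chr12:74897220-75177332 on the minus strand (GRCm38). It was at 7.45 and 5.68 FPKM in WT PBS, 0.21 and 0.74 in WT NMDA, 3.61 and 3.53 in shPax6 PBS, 2.80 and 1.59 in shPax6 NMDA, 3.52 and 3.34 in JNK3 KO PBS and 5.08 and 5.03 in JNK3 KO NMDA. Both WT NMDA libraries lay far below PBS, while both JNK3 KO NMDA libraries lay above it. The log2 difference was -3.69 ± 0.43 in WT (limma adjusted p = 6.74e-05, length-corrected -2.88), -0.73 ± 0.43 in shPax6 (adjusted p = 0.241) and 0.55 ± 0.43 in JNK3 KO (adjusted p = 0.506). Kcnh1, Kcnh6 and Kcnh7 also fell in WT, where their length-corrected values of 0.11, -0.68 and -0.20 did not pass, and Kcnh7 in shPax6.

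Kcnv2, the photoreceptor gene, was abundant in every group. It was at 61.85 and 58.78 FPKM in WT PBS, 27.57 and 24.88 in WT NMDA, 128.01 and 126.74 in shPax6 PBS, 64.83 and 70.56 in shPax6 NMDA, 63.79 and 66.46 in JNK3 KO PBS and 67.89 and 67.68 in JNK3 KO NMDA. It fell in WT by 1.20 ± 0.07 (limma adjusted p = 8.21e-07), but its length-corrected WT value was -0.11, which did not pass. The differences were -0.91 ± 0.07 in shPax6 (adjusted p = 2.04e-05, just past the limit with 75th-percentile scaling, -1.03) and 0.06 ± 0.07 in JNK3 KO (adjusted p = 0.688). Of 8 rod markers none passed after NMDA in any genotype, with sums of 24901 to 24993 FPKM against 24243 to 24356 in WT, 32917 to 35621 against 20623 to 20990 in shPax6 and 25540 to 26145 against 21755 to 21861 in JNK3 KO. Of 7 cone markers 1 fell and 2 rose in WT, 7 fell in shPax6 and 2 (Arr3 and Opn1mw) fell in JNK3 KO. Their sums were 640 to 666 against 1038 to 1101, 1210 to 1309 against 305 to 328 and 697 to 733 against 424 to 431 FPKM. The part of these cells in the Kcnv2 values was not tested.

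Of the other Kv modulatory subunits, Kcnf1 (Kv5.1) and Kcns2 (Kv9.2) fell and Kcng4 (Kv6.4) rose. Kcnf1 was at 1.40 and 1.37 FPKM in WT PBS, 0.45 and 0.61 in WT NMDA, 2.13 and 1.13 in shPax6 PBS, 0.38 and 0.23 in shPax6 NMDA, 1.35 and 1.62 in JNK3 KO PBS and 0.39 and 0.51 in JNK3 KO NMDA. It was lower after NMDA in each genotype, with differences of -1.25 ± 0.41 in WT (limma adjusted p = 0.0256, length-corrected -0.23), -2.06 ± 0.41 in shPax6 (adjusted p = 0.00517) and -1.53 ± 0.41 in JNK3 KO (adjusted p = 0.0471). Kcnf1 entered the set through PBS groups alone, so the rule favored these falls and the p-values do not allow for this. The JNK3 KO call was lost without either WT PBS library, WT NMDA 2 or any of the 4 JNK3 KO libraries (-1.37 to -1.69, adjusted p = 0.0502 to 0.198). Kcns2 was at 1.81 and 1.91 FPKM in WT PBS and 0.47 and 0.44 in WT NMDA, at 1.02 and 0.70 in shPax6 PBS and listed at 0 and 0.35 in shPax6 NMDA, and at 1.33 and 1.78 in JNK3 KO PBS and 1.32 and 1.3 in JNK3 KO NMDA. The shPax6 difference of -2.16 ± 0.62 (limma adjusted p = 0.0274) rested on the library at 0, without which it was -1.07, and the call was lost without either shPax6 PBS library. Kcng4 was at 12.1 and 12.8 FPKM in shPax6 PBS and 24.78 and 29.57 in shPax6 NMDA, a rise of 1.11 ± 0.10 (limma adjusted p = 5.98e-05) that was 0.99 without shPax6 NMDA 2 and 1.00, not past the limit, with 75th-percentile scaling. In WT it was at 14.38 and 15.15 FPKM after PBS and 18.53 and 18.89 after NMDA, and in JNK3 KO at 15.71 and 14.66 and then 19.32 and 18.78, so that NMDA libraries were above PBS libraries in all genotypes, by 0.34 ± 0.10 in WT, which was -0.23 on TPM and 1.06 after the length correction, and 0.33 ± 0.10 in JNK3 KO.

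On the FPKM scale, auxiliary subunits changed more often in shPax6 (7 of 11 fell, median -1.26) than in WT (3 fell, median -0.57). On TPM, Kcnab3, Kcne2 and Kcnip1 were among those that also passed in WT (-1.23, -1.03 and -1.19). The contrast thus depended on the scaling, and the difference between these counts was not tested. Kcnip4, which encodes the Kv4 partner KChIP4, was at 21.88 and 21.92 FPKM in WT PBS, 8.06 and 5.69 in WT NMDA, 10.73 and 10.46 in shPax6 PBS, 2.05 and 2.72 in shPax6 NMDA, 20.88 and 20.43 in JNK3 KO PBS and 11.46 and 11.48 in JNK3 KO NMDA. NMDA libraries were lower in every genotype without overlap, with differences of -1.68 ± 0.18 in WT (limma adjusted p = 3.28e-05, length-corrected -1.62), -2.12 ± 0.18 in shPax6 (adjusted p = 3.54e-05) and -0.84 ± 0.18 in JNK3 KO (adjusted p = 0.0178, under the limit of 1). Kcnip1 (KChIP1) was at 24.94 and 26.5 FPKM in WT PBS, 17.45 and 16.06 in WT NMDA, 20.45 and 20.55 in shPax6 PBS, 5.78 and 5.07 in shPax6 NMDA, 25.85 and 25.86 in JNK3 KO PBS and 11.98 and 13.95 in JNK3 KO NMDA. Its difference was -0.62 ± 0.11 in WT (limma adjusted p = 0.000845, length-corrected -0.88), -1.90 ± 0.11 in shPax6 (adjusted p = 3.97e-06) and -0.99 ± 0.11 in JNK3 KO (adjusted p = 0.000773), so that the shPax6 value passed the limit. The WT value did on TPM (-1.19) and the JNK3 KO value after quantile normalization (-1.04).

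Kcnmb4 encodes the neuronal beta-4 subunit of the BK channel and lies at chr10:116417861-116473878 on the minus strand (GRCm38). It was at 8.26 and 8.70 FPKM in WT PBS and 7.16 and 9 in WT NMDA. It was at 7.15 and 9.13 FPKM in shPax6 PBS and 1.53 and 1.47 in shPax6 NMDA, and at 8.92 and 7.85 in JNK3 KO PBS and 5.10 and 5.79 in JNK3 KO NMDA. The WT groups overlapped, and the shPax6 groups lay far apart. The difference was -0.08 ± 0.18 in WT (limma adjusted p = 0.736, length-corrected -0.78, 0.24 after quantile normalization), -2.35 ± 0.18 in shPax6 (adjusted p = 1.86e-05) and -0.61 ± 0.18 in JNK3 KO (adjusted p = 0.0596). The noncoding Kcnmb4os2 overlaps Kcnmb4 by 716 bases on the other strand of chromosome 10, and since the strand setting of the libraries is not given in the sources used here, reads of the overlap cannot be told apart; it stayed between 0 and 1.77 FPKM. Kcne2, a small transmembrane subunit, was at 17.5 and 16.56 FPKM in WT PBS, 11.37 and 13.46 in WT NMDA, 29.04 and 23.72 in shPax6 PBS, 8.06 and 7.65 in shPax6 NMDA, 16.66 and 19.24 in JNK3 KO PBS and 15.21 and 13.86 in JNK3 KO NMDA. It fell in shPax6 by 1.73 ± 0.13 (limma adjusted p = 2.3e-05), with -0.46 ± 0.13 in WT (length-corrected -0.81, and past the limit on TPM at -1.03) and -0.30 ± 0.13 in JNK3 KO.

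Of the beta subunit genes of Kv1 channels, Kcnab1 fell in WT and shPax6, Kcnab2 in WT and Kcnab3 in shPax6. Kcnab1 was at 22.31 and 22.15 FPKM in WT PBS, 8.67 and 9.50 in WT NMDA, 17.33 and 19.28 in shPax6 PBS, 6.56 and 8.72 in shPax6 NMDA, 21.1 and 16.94 in JNK3 KO PBS and 17.59 and 17.12 in JNK3 KO NMDA. It fell by 1.28 ± 0.15 in WT and by 1.26 ± 0.15 in shPax6 (limma adjusted p = 7.29e-05 and 0.000322), and the JNK3 KO groups overlapped. Its length-corrected WT value, -0.84, did not pass. Kcnab2 was at 118.81 and 122.41 FPKM in WT PBS and 57.62 and 57.73 in WT NMDA, a fall of 1.06 ± 0.06 (limma adjusted p = 7.01e-07, length-corrected -1.04). It was at 115.15 and 103.11 FPKM in shPax6 PBS and 84.6 and 83.17 in shPax6 NMDA, and at 108.41 and 111.35 in JNK3 KO PBS and 70.9 and 72.55 in JNK3 KO NMDA, lower in both but by less than the limit. Kcnab3, Kcnip3, Kcne2, Kcnip1 and Kcnmb4 fell in shPax6 and did not pass in WT, where Kcnab3 passed on TPM (-1.23).

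**Figure D4:**
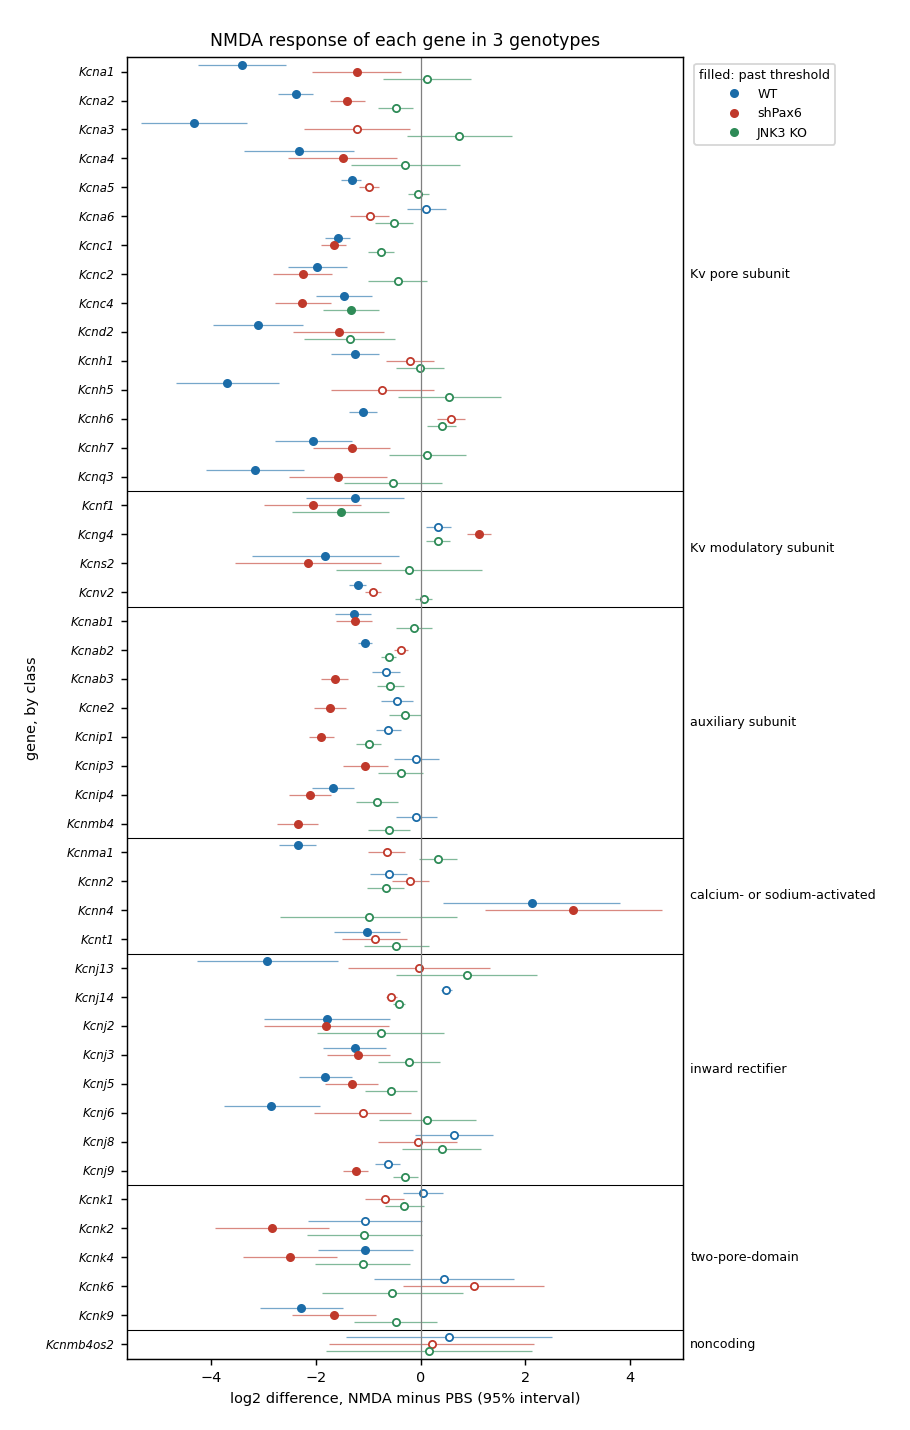
For each of the 45 genes named in the text, ordered by class, points give the log2 difference between NMDA and PBS in WT (blue), shPax6 (red) and JNK3 KO (green) with its 95% interval; filled points passed the threshold. Most Kv pore subunits are filled and below 0 in WT, most auxiliary subunits in shPax6, and Kcnc4 and Kcnf1 alone in JNK3 KO.

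Among calcium- or sodium-activated channels, the BK pore gene Kcnma1 fell in WT and the immune-cell channel gene Kcnn4 rose. Kcnma1 was at 39.36 and 37.38 FPKM in WT PBS, 6.73 and 8.25 in WT NMDA, 22.17 and 22.85 in shPax6 PBS, 16.87 and 12.18 in shPax6 NMDA, 24.33 and 28.51 in JNK3 KO PBS and 32.1 and 34.19 in JNK3 KO NMDA. NMDA libraries were lower in WT and shPax6 and higher in JNK3 KO. The difference was -2.35 ± 0.16 in WT (limma adjusted p = 2.05e-06, length-corrected -0.92, not past the limit), -0.65 ± 0.16 in shPax6 (adjusted p = 0.014) and 0.33 ± 0.16 in JNK3 KO (adjusted p = 0.251). Kcnt1, a sodium-activated channel gene, fell in WT by 1.02 ± 0.27 (limma adjusted p = 0.00976, length-corrected -0.22). Kcnn2 (SK2), on chromosome 18, was at 6.15 and 6.23 FPKM in WT PBS, 4.18 and 3.85 in WT NMDA, 3.66 and 3.28 in shPax6 PBS, 2.76 and 3.29 in shPax6 NMDA, 6.82 and 6.68 in JNK3 KO PBS and 4.33 and 4.10 in JNK3 KO NMDA, and it passed the limit in no response, though the WT value of -0.61 was past it on TPM (-1.18).

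Kcnn4 encodes the intermediate-conductance channel KCa3.1 of blood and immune cells. It entered the set through shPax6 NMDA alone, with a mean of 1.965 FPKM there and 0.96 in WT NMDA. The rule therefore favored its rise in shPax6, and the p-value given for that rise does not allow for this. It was at 0.14 and 0.13 FPKM in WT PBS and 1.25 and 0.67 in WT NMDA, at 0.39 and 0.05 in shPax6 PBS and 2.28 and 1.65 in shPax6 NMDA, and at 0.18 and 0.44 in JNK3 KO PBS and 0.22 and 0.02 in JNK3 KO NMDA. NMDA libraries lay above PBS libraries in WT and shPax6 and overlapped with them in JNK3 KO. The rise was 2.12 ± 0.75 in WT (limma adjusted p = 0.0345) and 2.91 ± 0.75 in shPax6 (adjusted p = 0.0171), and the JNK3 KO difference was -0.99 ± 0.75 (adjusted p = 0.484). The length-corrected WT value, 1.94, and that on TPM, 1.83, did not pass. The WT call was lost without WT PBS 1, WT PBS 2 or WT NMDA 1 (2.15, 2.09 and 1.71), and the shPax6 call without shPax6 PBS 2 or shPax6 NMDA 1 (2.06 and 2.69). Of 6 neutrophil markers, 4 rose in WT and 5 in shPax6 and 4 fell in JNK3 KO, with summed levels of 212 to 235 against 1947 to 1985 FPKM, 5.16 to 6.09 against 66.4 to 73 and 156 to 169 against 13.1 to 13.9, and of 6 microglia and macrophage markers 2 rose and 1 fell in WT, 3 rose in shPax6 and none passed in JNK3 KO. Of 5 erythrocyte markers, all rose in WT and 4 in shPax6, and none passed in JNK3 KO. Their sums were 97.3 to 107 against 613 to 650, 28.7 to 50.3 against 120 to 126 and 123 to 126 against 69.4 to 79.7 FPKM. The part of these cells in the Kcnn4 result was not tested. Kcnk13, a two-pore-domain channel gene of microglia, stayed between 0.05 and 0.73 FPKM and outside the set.

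Of the 10 inward rectifier genes, 5 fell in WT and 4 in shPax6. Kcnj13 (Kir7.1), known from the retinal pigment epithelium (RPE), was at 1.24 and 1.28 FPKM in WT PBS and was listed at 0 and 0.22 in WT NMDA. It was at 1.47 and 0.75 in shPax6 PBS, 0.79 and 1.33 in shPax6 NMDA, 0.68 and 1.29 in JNK3 KO PBS and 1.74 and 1.89 in JNK3 KO NMDA. The 2 treatments overlapped in shPax6, and in JNK3 KO the NMDA libraries were the higher ones. The WT difference was -2.93 ± 0.60 (limma adjusted p = 0.00222, length-corrected -3.63), against -0.03 ± 0.60 in shPax6 (adjusted p = 0.985) and 0.88 ± 0.60 in JNK3 KO (adjusted p = 0.429). The summed level of 6 RPE markers went from 49.5 to 57.4 FPKM in WT PBS to 64.4 to 69.8 in WT NMDA, with 1 of the 4 tested lower. In shPax6 it went from 53.2 to 55.1 to 6.95 to 11.5 FPKM, with 3 of the 4 lower, and in JNK3 KO from 36.3 to 41.6 to 44.1 to 46.3 with none past the threshold. The part of these cells in the Kcnj13 values was not tested. Kcnj14, the most abundant inward rectifier gene, was at 142.01 and 148.76 FPKM in WT PBS and 202.91 and 204.34 in WT NMDA, at 213.11 and 203.89 in shPax6 PBS and 140.17 and 141.92 in shPax6 NMDA, and at 181.47 and 177.81 in JNK3 KO PBS and 138.6 and 132.11 in JNK3 KO NMDA. It was higher after NMDA in WT, by 0.49 ± 0.05 (limma adjusted p = 2.01e-05), but turned on TPM (-0.09) and after quantile normalization (-0.23), and was 0.75 after the length correction. It was lower in shPax6 and JNK3 KO, with -0.56 ± 0.05 and -0.41 ± 0.05 (adjusted p = 3.72e-05 and 0.00112), with no overlap in any genotype and no value past the limit of 1. It was named after its values were seen. The G protein-gated channel genes Kcnj3, Kcnj5 and Kcnj6 fell in WT, by 1.26, 1.82 and 2.85 (length-corrected -0.49, not past the limit, -1.0 and -2.58), and Kcnj3, Kcnj5 and Kcnj9 in shPax6, by 1.19, 1.32 and 1.24. Kcnj8, the pericyte channel gene Kir6.1, was between 0.54 and 0.93 FPKM outside WT NMDA and at 1.17 and 1.5 there, a difference of 0.64 ± 0.33 (limma adjusted p = 0.126) that passed after quantile normalization (1.08).

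Of the 6 two-pore-domain channel genes, Kcnk4 and Kcnk9 fell in both WT and shPax6, and Kcnk2 in shPax6. The length-corrected WT value of Kcnk9, -0.43, did not pass. Kcnk2 (TREK-1) was at 1.57 and 2.06 FPKM in WT PBS, 0.84 and 0.77 in WT NMDA, 0.59 and 1.31 in shPax6 PBS, 0 and 0.09 in shPax6 NMDA, 1.26 and 1.76 in JNK3 KO PBS and 0.69 and 0.62 in JNK3 KO NMDA. No NMDA library reached the PBS level of its genotype. Kcnk2 entered the set through PBS groups alone, which favored a fall. Its shPax6 fall rested on values of 0 and 0.09 FPKM, and with a pseudocount of 1 it was -0.88, not past the limit. The difference was -1.07 ± 0.48 in WT (limma adjusted p = 0.0844, length-corrected -0.69), -2.84 ± 0.48 in shPax6 (adjusted p = 0.0022) and -1.08 ± 0.48 in JNK3 KO (adjusted p = 0.215), and the WT value passed when any of the 4 shPax6 libraries was left out and on TPM (-1.64). Kcnk4 (TRAAK), the other member named here for its size of fall, was at 2.14 and 2.20 FPKM in WT PBS, 1.43 and 0.68 in WT NMDA, 1.88 and 1.41 in shPax6 PBS, 0.14 and 0.29 in shPax6 NMDA, 2.26 and 2.7 in JNK3 KO PBS and 1.05 and 1.15 in JNK3 KO NMDA. It fell by 1.06 ± 0.40 in WT (limma adjusted p = 0.0457, length-corrected -1.78) and by 2.50 ± 0.40 in shPax6 (adjusted p = 0.00157), with -1.10 ± 0.40 in JNK3 KO (adjusted p = 0.124). After quantile normalization the WT value of Kcnk4 was -0.7 and did not pass. Kcnk1 (TWIK-1) was at 21.3 and 18.38 FPKM in WT PBS, 19.53 and 21.16 in WT NMDA, 16.66 and 18.66 in shPax6 PBS, 9.18 and 12.83 in shPax6 NMDA, 19.22 and 19.86 in JNK3 KO PBS and 14.18 and 17.46 in JNK3 KO NMDA, and passed in no response.

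The genes that fell in WT and in shPax6 were partly the same. In all, 40 of the 61 genes fell in at least 1 of these responses: 20 passed in both, 13 in WT alone and 7 in shPax6 alone, so that the shared genes were 20 of 33 WT falls (60.6%) and 20 of 27 shPax6 falls (74.1%). Over all 16471 genes, 434 passed in both, 3007 in WT alone and 379 in shPax6 alone, and the shared genes were 12.6% of the WT falls and 53.4% of the shPax6 falls. A gene past the threshold in one genotype only is not thereby shown to differ between genotypes, so the difference of the responses was tested itself. Against shPax6, 18 genes differed: 13 responded lower in WT and 5 higher, when 21.7% and 10.3% of all genes did. Against JNK3 KO, 26 differed: 25 lower in WT and 1 higher, when 20.1% and 15.5% of all genes did. Read against these backgrounds, the shares of the 61 genes were close to those of all genes for shPax6 and above them for the 25 genes that responded lower than in JNK3 KO. Both differences use the same 4 WT libraries.

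The length trend of the WT NMDA libraries weighed on both differences. After the length correction, 4 genes (Kcna3, Kcnh5, Kcnh6 and Kcnj13) responded lower in WT than in shPax6 and 15 higher, against 11% and 7.38% of all genes. For JNK3 KO, 7 responded lower in WT (Kcna1, Kcna3, Kcnh5, Kcnh6, Kcnj6, Kcnj13 and Kcnma1) and 4 higher, against 9.74% and 7.02%. The median difference from shPax6 went from -0.06 to 0.65 with it, and that from JNK3 KO from -0.56 to -0.03. The split against shPax6 was 19 lower and 1 higher on TPM and 7 lower and 11 higher after quantile normalization. On TPM the median WT response of all genes moved from -0.09 to -0.66, and that of the 61 genes to -1.64. Leaving both WT NMDA libraries out, an alternative chosen after seeing the data, gave 31 shPax6 and 2 JNK3 KO calls. The shares of all genes under these scalings and this alternative are not given.

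Without injury, few channel genes set shPax6 apart from WT and none JNK3 KO. In shPax6 PBS 5 of the 61 genes were lower than in WT PBS and 1 was higher, against 3.9% and 0.522% of all genes, with a median of -0.62 against -0.06 for all genes. Among the lower ones were Kcnc4 (-1.24 ± 0.24, limma adjusted p = 0.00787), Kcna2 (-1.14 ± 0.15, adjusted p = 0.00107), Kcnip4 (-1.04 ± 0.18, adjusted p = 0.00419) and Kcnj5 (-1.02 ± 0.22, adjusted p = 0.0139), with the values of Kcnc4, Kcna2 and Kcnip4 given above. Kcnj5, a cardiac and neuronal G protein-gated channel gene, was at 5.68 and 5.32 FPKM in WT PBS and 2.90 and 2.45 in shPax6 PBS. Kcnv2 was higher, at 128.01 and 126.74 against 61.85 and 58.78 FPKM (1.08 ± 0.07, limma adjusted p = 2.65e-05). The call for Kcnc4 was lost without WT PBS 1 (adjusted p = 0.0719). The length-corrected Kcnip4 value was -0.97 and that of Kcnj5 -0.91, neither past the limit. Of the RGC markers 6 of 12 were lower in shPax6 PBS, with sums of 175 to 177 against 577 to 600 FPKM, and the summed rod and cone markers were higher, at 32917 to 35621 against 24901 to 24993 and at 1210 to 1309 against 640 to 666 FPKM; their part in these differences was not tested. In JNK3 KO PBS limma called none of the 61 genes against WT PBS, when 0.127% of all genes were lower and 0.103% higher, and none passed the same limit at an unadjusted p under 0.05, against 0.692% and 0.619% of all genes. Kcnj14 had the one adjusted p under 0.05, with 0.31 ± 0.05 (adjusted p = 0.0217).

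Transcripts of the same gene did not always move together. Of 128 transcripts from 59 of the genes, 59 fell and 5 rose in WT, against 20.9% and 8.91% of all 49940 transcripts. In shPax6 16 fell and 2 rose, against 2.71% and 3.25%. In JNK3 KO none passed with limma, where 0.368% and 0.288% of all transcripts did. There 11 of the 128 passed the limit at an unadjusted p under 0.05, for which the share of all transcripts is not given. RSEM divides shared reads among transcripts, so these values are estimates. They are also not corrected for the length trend of the WT NMDA libraries, and its part in them was not tested. In WT, the transcripts of 4 genes went both ways, Kcnip4, Kcnab1 and Kcnh1 among them.

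**Figure D5:**
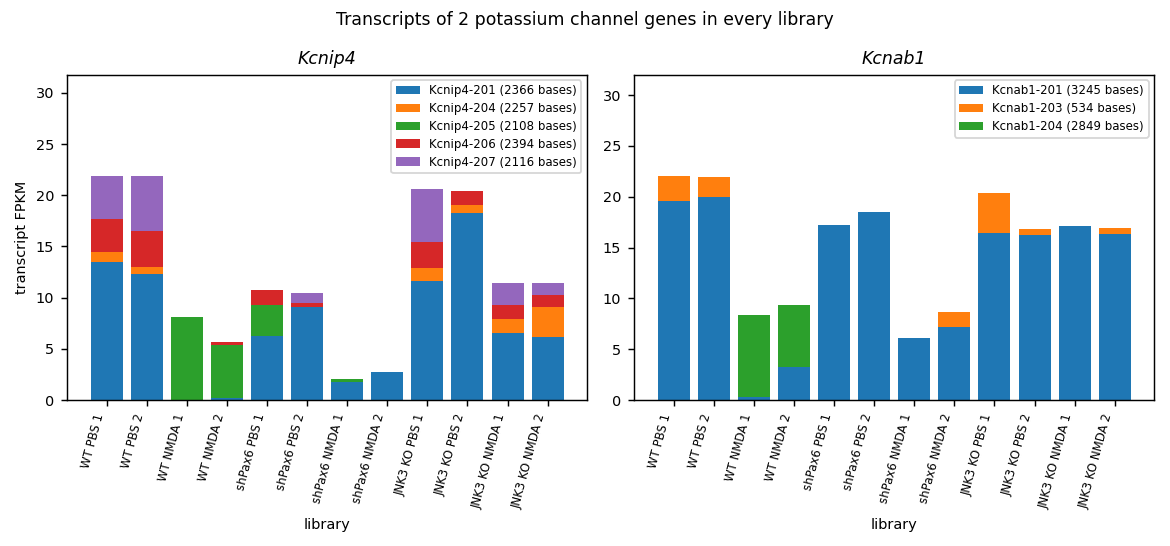
Stacked bars give the FPKM of each tested transcript of Kcnip4 and Kcnab1 in the 12 libraries, with transcript lengths in bases in the legend. In both WT NMDA libraries Kcnip4-205 and Kcnab1-204 are the tallest segments of their genes.

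For Kcnip4, the coding transcript Kcnip4-201 was at 13.43 and 12.32 FPKM in WT PBS and 0 and 0.16 in WT NMDA (-6.33 ± 0.47, limma adjusted p = 2.86e-05). The noncoding Kcnip4-205 was listed at 0 in each WT PBS library but reached 8.06 and 5.24 FPKM in WT NMDA. In shPax6 PBS 1 it was at 3.07 FPKM, and in shPax6 NMDA Kcnip4-201 stayed the leading one at 1.80 and 2.72 FPKM. For Kcnab1, the coding Kcnab1-201 was at 19.63 and 19.95 FPKM in WT PBS and 0.30 and 3.26 in WT NMDA (-4.10 ± 0.78, limma adjusted p = 0.00435), and the noncoding Kcnab1-204, listed at 0 in the other 10 libraries, was at 8.11 and 6.12 FPKM in WT NMDA. Kcnip4-205 and Kcnab1-204 are of 2108 and 2849 bases, against 2366 and 3245 for the coding transcripts.

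The kinase JNK3 belongs to the JNK family, which acts in part through the AP-1 factors, whose binding sequence is TGANTCA, and Kcnip4, Kcnip3 and Kcnk2, which fell in shPax6, are the members with that sequence in a promoter window. Windows from 250 bases before to 50 after each listed start, of which a gene can have several, were taken from RefSeq (GRCm38.p6) and were at hand for 42 of the 61 genes. On either strand, 3 of 42 (7.14%) held TGANTCA, against 8.97% of 27025 genes, and 0 held the cAMP response element TGACGTCA, against 2.03%. The stretches around the 3 matches are shown 5′ to 3′ on the gene's strand, minus in each case, with the match in capitals.
Kcnk2, chr1:189344272-189344358: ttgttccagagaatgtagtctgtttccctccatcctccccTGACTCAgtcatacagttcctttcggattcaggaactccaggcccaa
Kcnip3, chr2:127522170-127522256: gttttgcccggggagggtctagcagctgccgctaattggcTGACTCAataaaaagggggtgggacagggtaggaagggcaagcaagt
Kcnip4, chr5:49285695-49285781: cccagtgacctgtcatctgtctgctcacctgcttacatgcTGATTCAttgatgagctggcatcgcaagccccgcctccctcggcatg
The matches begin 126, 122 and 82 bases before the listed start, which for Kcnip3 is that of the GENCODE gene and for Kcnk2 and Kcnip4 an inner one, 58081 and 239248 bases inside it. The share of channel genes with one was not above that of all genes.

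Partners of potassium channels that carry other names also fell in WT. A list of 32 such genes held auxiliary proteins, HCN channels, sodium pumps and chloride cotransporters, and 29 were tested. In WT 14 fell and none rose with a median of -0.91, against 20.9% and 14.2% of all genes. In shPax6 6 fell and 2 rose with a median of -0.32, against 4.94% and 8.64%. In JNK3 KO none passed with limma, against 1.87% and 0.777% of all genes. At an unadjusted p under 0.05, 2 passed the limit there, against 3.24% and 1.44%. After the length correction 4 fell and 1 rose in WT, with a median of -0.25, against 11.3% and 6.73% of all genes. Dpp6 and Dpp10, which encode Kv4 partners, fell in both WT (-1.06 and -2.30) and shPax6 (-1.44 and -1.66), as did Lgi1, a secreted partner of Kv1 complexes (-2.60 and -2.93), and Atp1b1, a sodium pump subunit (-2.15 and -1.88). Length-corrected, the WT values of Dpp10 (-1.36), Lgi1 (-1.83) and Atp1b1 (-2.17) passed and that of Dpp6 (-0.17) did not. Ank3, whose product ankyrin-G anchors M-current channels at the axon initial segment, fell in WT (-2.51, length-corrected -1.53).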

How the data were processed

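Retinal poly(A) RNA was sequenced in 12 libraries, 2 for each of 3 genotypes after PBS or NMDA. The authors mapped the reads with STAR 2.7.1a to GRCm38.p6 and, per the submitters' processing notes, used RSEM 1.3.3, edgeR 3.36.0 and R 4.1.0; the deposited tables hold FPKM for genes and for transcripts. FPKM are not counts, so the depth behind a value is unknown, and count tests and counting intervals were not used. The members, lists, tests and alternatives were chosen with earlier results of these data known.

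The deposited values were taken to log2 after adding a pseudocount of 0.1. limma 3.58.1 (lmFit, then eBayes with its trend option) under R 4.3.3 was run on the 16471 genes whose mean passed 1 FPKM in some group, as 1 model of 6 group means and 6 residual degrees of freedom, without a replicate block, and p-values were adjusted by Benjamini-Hochberg over all of them. A call needed an adjusted p under 0.05 and an absolute log2 difference above 1. Values are given ± SE. Positions and transcript lengths came from GENCODE M21, which held 55227 of the genes (99.53%). The spliced length of a gene was the mean of its transcript lengths weighted by their mean FPKM over the 12 libraries. These lengths thus rest in part on the data themselves. For the length correction, each library was adjusted for its lowess trend (span 0.3) on length. Named with a value in every library were, for each NMDA response, the called members with the 6 largest falls and 4 largest rises, those called between genotypes after PBS (up to 4 each way), the 3 largest called each way in each response difference, and members fixed for their role; some genes that the rule names are not reported here. Kcna4, Kcna5, Kcna6, Kcnj3, Kcnj5, Kcnj6, Kcnj9, Kcnj14, Kcnt1, members listed by count or by promoter match, and partner genes given with values were chosen after their values were seen. The calls were also run on simulated data, and the outcome is not reported here. Marker lists of RGC, amacrine, bipolar, Müller glia, rod, cone, RPE, erythrocyte, neutrophil, and microglia and macrophage genes were counted in the same fit. Alternatives were pseudocounts of 0.5 and 1, no trend option, no filter or a filter on the mean of 12 libraries, TPM, 75th-percentile and quantile scaling, the length correction, a spread from the compared groups alone, a replicate block, other call rules and each library left out. Python 3.11.15 with matplotlib 3.10.9 made the figures.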

Additional observations from a re-analysis of the deposited data

Results flagged for a closer look

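Responses that differed between genotypes were singled out by the test of the difference itself, with limma and Benjamini-Hochberg adjustment. The WT response minus the shPax6 response passed for 18 of the 61 potassium channel genes, 13 lower and 5 higher, where 21.7% of all genes responded lower and 10.3% higher in WT, and the WT response minus the JNK3 KO response for 26, where 20.1% and 15.5% did. After the length correction, 4 genes were lower and 15 higher against shPax6, when 11% and 7.38% of all genes were. Against JNK3 KO 7 were lower and 4 higher, when 9.74% and 7.02% of all genes were. The 4 WT libraries enter both differences.

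Against shPax6, the genes whose WT response was lower by most were Kcna3 (-3.12, limma adjusted p = 0.00302), Kcnh5 (-2.97, adjusted p = 0.00341) and Kcnj13 (-2.89, adjusted p = 0.0191). After the length correction these were -3.14, -2.12 and -3.36, and with a pseudocount of 1 they were -1.09, -1.83 and -1.01. The Kcnj13 call was lost without WT PBS 1 (adjusted p = 0.0536), WT PBS 2 (0.0552), shPax6 PBS 2 (0.0604) or shPax6 NMDA 2 (0.0601), and after quantile normalization (-2.42). Of the 5 with the higher WT response, those with the largest difference were Kcnmb4 (2.28, limma adjusted p = 9.69e-05), Kcnip1 (1.29, adjusted p = 0.000148) and Kcne2 (1.27, adjusted p = 0.000575), and after the length correction 1.81, 1.21 and 1.12. On TPM they were 1.79, 0.77 and 0.75, so that the Kcnip1 and Kcne2 calls were lost. The others were Kcna6 (1.08, limma adjusted p = 0.00399) and Kcnj14 (1.05, adjusted p = 5.28e-06), which on TPM were 0.57 and 0.53 and did not pass.

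Against JNK3 KO, the lower WT responses were again led by Kcna3 (-5.07, limma adjusted p = 0.000144), Kcnh5 (-4.24, adjusted p = 0.000364) and Kcnj13 (-3.80, adjusted p = 0.00451). With a pseudocount of 1 these differences were -2.29, -2.82 and -1.55. In each of these 3 genes both WT NMDA libraries lay below both WT PBS libraries and both JNK3 KO NMDA libraries above both JNK3 KO PBS libraries. Only Kcnn4, which entered the set through shPax6 NMDA alone, passed in the other direction (3.11, limma adjusted p = 0.0343). Its call was lost without WT PBS 1, WT PBS 2, WT NMDA 1, JNK3 KO PBS 2 or JNK3 KO NMDA 2 (differences of 3.14, 3.08, 2.7, 2.63 and 2.40). It was also lost on TPM (3.05) and after the length correction (2.86).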

How the results depend on the processing

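Counts of channel genes past the threshold were recomputed under each alternative. Where no share of all genes stands beside a count here, the count shows only how far it moved with the processing. In WT (34 of 61) the count was 16 after the length correction, against 11.3% of all genes lower and 6.73% higher. It was 41 on TPM and 29 to 36 with 1 library left out. In shPax6 (30) it was 16 with a pseudocount of 1, against 3.06% of all genes lower and 6.9% higher. With a spread from the compared groups alone it was 8, against 1.09% and 2.9%. The highest count under an alternative was 44, and with 1 library left out it was 26 to 31. In JNK3 KO (2) it was 1 with a pseudocount of 1, without a filter and with the filter on 12 libraries. It was 4 after the length correction (1.71% of all genes lower and 0.716% higher) and 4 at an unadjusted p (3.24% and 1.44%). Without a limit on the difference it was 10, and with 1 library left out 0 to 3. For shPax6 against WT under PBS (6) it was 3 with a spread from the compared groups alone, 10 at an unadjusted p, 21 without the limit and 4 to 9 with 1 library left out; for JNK3 KO against WT under PBS (0) it was 1 without the limit and 0 with 1 library left out. The response differences gave 28 without the limit and 14 to 24 with 1 library left out against shPax6 (18), and 11 after the length correction and 21 to 28 against JNK3 KO (26). Replicate numbers did not pair the libraries (correlations of same-numbered deviations from -0.097 to 0.086 between groups); with the replicate block the counts were 33, 29 and 1 for the NMDA responses, 6 and 0 under PBS and 17 and 24 for the differences.

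Of 76 results for named genes, 5 changed sign in some alternative, in 11 of 1933 cases (a result under an alternative). In 84 cases, of 26 results, a call was lost, and in 29, of 13 results, one was gained. The changes of sign were Kcnv2 in JNK3 KO (-0.08) and Kcnk1 in WT (-0.11) after the length correction, Kcnk1 in WT also on TPM (-0.53), with 75th-percentile scaling (-0.04) and with 1 library left out (-0.07 to 0.14), and, with 1 library left out, Kcnab1 in JNK3 KO (-0.28 to 0.03), Kcnj13 in shPax6 (-0.48 to 0.41) and Kcnj8 in shPax6 (-0.17 to 0.04). None of these had passed the threshold. The cause was not tested. For these genes, replicate libraries differed by a median of 0.079 (WT PBS) to 0.391 (shPax6 NMDA) on the log2 scale, and FPKM give no depth, so that low levels could not be given counting limits.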
